A study of Mus musculus with 6 samples.

Results

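The transcripts described here encode 10 proteins of the basement membrane: the type IV collagen chains Col4a1, Col4a2, Col4a3, Col4a4 and Col4a5, the type XVIII collagen chain Col18a1, the nidogens Nid1 and Nid2, perlecan (Hspg2) and agrin (Agrn). They were chosen by name from a table of 22274 genes. The rule read the symbol column, where 8 of the 10 are spelled as named and 2, Col4a5 and Hspg2, are written in capitals; those were matched by gene identifier, so 10 of 10 were found. Each passed the filter on low counts and was tested.

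RNA was sequenced from mouse kidney cells labelled as primary renal fibroblasts, in 3 libraries of cells given Prune2 siRNA, labelled as a Prune2 knockdown, and 3 libraries of wild-type cells given a scrambled siRNA as control. Both groups had received TGF-β, a cytokine that activates fibroblasts, at 5 ng/ml for 48 h, so the comparison asks what Prune2 depletion did in TGF-β-treated cells and holds nothing on TGF-β itself. The strain, age and sex of the animals, the siRNA sequences, and whether replicates were separate isolations or cultures are not given in the labels; the p-values therefore reflect only how much these libraries varied, and that variation may be technical. Total counts were 21126240, 22969089 and 23234797 in Prune2 siRNA replicates 1, 2 and 3, and 20608177, 20075265 and 23035593 in control siRNA replicates 1, 2 and 3.

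The data limit the cell type label. Decorin (Dcn) and lumican (Lum), which define most fibroblasts, were near 0: Dcn lay between 0.305 and 0.708 CPM (counts scaled to library size) in the Prune2 siRNA libraries and between 0.244 and 0.348 CPM in control libraries, and Lum reached at most 0.0855 CPM and 0.130 CPM in the same groups. The epithelial keratin Krt8 averaged 2208 CPM in Prune2 siRNA libraries and 2420.3 CPM in control libraries, and the epithelial adhesion gene Epcam 431 and 428 CPM. Not all fibroblast markers were near 0. Vim averaged 395 CPM in Prune2 siRNA libraries and 569.8 CPM in control libraries. Col1a1, the main fibrillar collagen chain of fibroblasts, averaged 204 CPM in Prune2 siRNA libraries and 236 CPM in control libraries. The cells are therefore called by their label only, and in bulk RNA fewer cells of a type and less RNA per cell cannot be told apart.

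Basement membranes are thin sheets of matrix that underlie epithelia and endothelia and wrap muscle, fat and Schwann cells. Type IV collagen forms their network: α1 and α2 chains assemble together in nearly all basement membranes, while α3, α4 and α5 chains assemble together in the mature glomerular basement membrane and in some tubular ones, and α5 also pairs with α6. Nidogens link the collagen network to the laminin network, and perlecan, agrin and collagen XVIII carry heparan sulfate chains. In humans, mutations of COL4A3, COL4A4 or COL4A5 cause Alport syndrome, a hereditary kidney disease.

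The type IV collagen genes sit in pairs that are transcribed away from each other from a common stretch of DNA, so the pair partners are set side by side below. On chromosome 8 the annotated starts of Col4a1 (minus strand, 11312826) and Col4a2 (plus strand, 11312805) leave the first exons overlapping by 22 bases. On chromosome 1 Col4a4 (minus strand, 82586849) and Col4a3 (plus strand, 82586921) start 72 bases apart, and on chromosome X Col4a6 (minus strand, 141474076) and Col4a5 (plus strand, 141475419) start 1343 bases apart. Starts are RefSeq's on GRCm38.p6, except that of Col4a3, which is GENCODE's on GRCm38. The windows below run from 250 bases before the start to 50 bases after it, 5′ to 3′ on the named gene's strand, 1 per pair, and are shown because each holds the start of a gene whose values are compared with its partner's below. The Col4a2 window holds the start of Col4a1 and the Col4a4 window that of Col4a3, while the start of Col4a6 lies outside the Col4a5 window. Capitals mark matches, on either strand, to CCAAT (the CCAAT box) or GGGCGG (the GC box).
Col4a2, chr8:11312555-11312854, plus strand: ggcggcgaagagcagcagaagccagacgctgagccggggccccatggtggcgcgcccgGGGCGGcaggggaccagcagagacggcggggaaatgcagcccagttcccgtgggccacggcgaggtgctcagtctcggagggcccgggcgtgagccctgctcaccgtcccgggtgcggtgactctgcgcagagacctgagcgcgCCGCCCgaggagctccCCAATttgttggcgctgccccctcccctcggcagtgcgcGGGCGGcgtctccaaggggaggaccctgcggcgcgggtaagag
Col4a4, chr1:82586800-82587099, minus strand: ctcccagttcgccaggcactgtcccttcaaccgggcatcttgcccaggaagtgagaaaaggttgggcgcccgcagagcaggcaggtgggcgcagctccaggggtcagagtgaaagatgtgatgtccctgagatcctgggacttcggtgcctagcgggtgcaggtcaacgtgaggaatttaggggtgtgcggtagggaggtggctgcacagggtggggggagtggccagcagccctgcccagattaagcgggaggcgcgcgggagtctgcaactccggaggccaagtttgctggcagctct
Col4a5, chrX:141475169-141475468, plus strand: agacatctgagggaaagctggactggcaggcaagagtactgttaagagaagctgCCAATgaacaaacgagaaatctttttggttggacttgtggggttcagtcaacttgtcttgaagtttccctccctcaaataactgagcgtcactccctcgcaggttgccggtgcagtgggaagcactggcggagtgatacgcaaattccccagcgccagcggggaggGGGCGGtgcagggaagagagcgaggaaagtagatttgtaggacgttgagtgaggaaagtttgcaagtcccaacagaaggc
The Col4a2 window held 1 CCAAT box and 3 GC boxes, the Col4a5 window held 1 of each, and the Col4a4 window had neither. Of all 32851 windows of this length in the RefSeq table, 37.4% held a CCAAT box and 35.7% a GC box. The TATA box (TATAAA), present in 13.6% of all windows, was also searched on both strands, as was the CTC box described in type IV collagen promoters (CCCTNCCCC), present in 9.48%. Neither matched in the 3 windows, and the matches shown do not overlap one another. GC content was 73.7% in the Col4a2 window, 63.3% in the Col4a4 window and 52.7% in the Col4a5 window, against a median of 52.7% over all windows. A match is a description of the letters and not a binding site.

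Prune2 itself (ENSMUSG00000039126) was measured at 3.78, 3.19 and 4.44 CPM in Prune2 siRNA replicates 1, 2 and 3, and at 6.49, 7.85 and 6.52 CPM in control replicates 1, 2 and 3. The groups did not overlap, and transcript remained in every Prune2 siRNA library. The log2 fold change was -0.87 (SE 0.15, edgeR adjusted p = 0.000214). The size and the limma call depend on the scale. On counts, limma gave a log2 fold change of -0.87 (adjusted p = 0.000378). Limma gave a log2 difference of -0.24 on log2(FPKM + 1) (adjusted p = 0.146) and of -0.43 on log2(FPKM + 0.1) (adjusted p = 0.187). The authors' deposited table gives a log2 fold change of -0.48 (adjusted p = 0.000249). The transcript length implied by the count and FPKM columns differed between the groups, at 4492 ± 537 bases in Prune2 siRNA libraries and 5874 ± 159 bases in control libraries (SD, n = 3 each).

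Of the 10 genes, 6 were called changed at an adjusted p under 0.05 by edgeR's quasi-likelihood test, beside 10.3% of the 13248 genes tested. Col4a1, Col4a2, Nid1 and Nid2 fell, and Col4a5 and Col18a1 rose. The same call was made for 5.83% of all tested genes in the downward direction and for 4.46% in the upward one. Col4a3, Col4a4, Hspg2 and Agrn were not called. The groups did not overlap in CPM for 7 of the 10, the 6 called genes and Col4a4, beside 24.3% of all tested genes. Of these 7, 3 were higher and 4 lower with Prune2 siRNA, beside 11.9% and 12.4% of all tested genes in the same directions. The median log2 fold change was 0.08 over the 10 genes and 0.00 over all tested genes. Nid2 was 1.74-fold lower and Nid1, the next largest change, 1.23-fold lower, and within the type IV collagen family genes moved in both directions. In the authors' deposited table, the adjusted p was under 0.05 for 6 of the 10 genes, beside 6.07% of the genes with a value there, and lay between 4.36e-15 for Col4a1 and 0.282 for Col4a3.

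**Figure D1:**
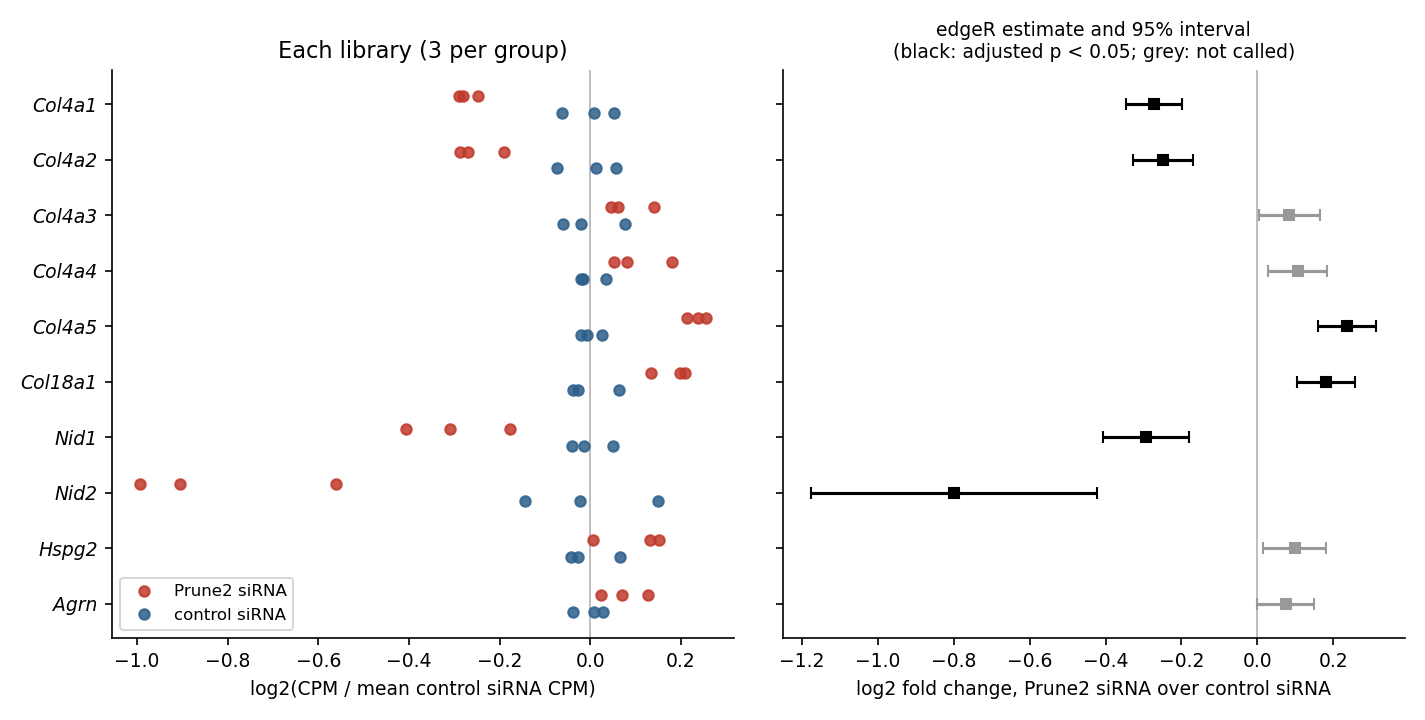
Comparison of the CPM of each of the 10 genes between Prune2 siRNA and control siRNA libraries, 1 point per library. Col4a1, Col4a2, Nid1 and Nid2 lie lower and Col4a5, Col18a1 and Col4a4 higher in all 3 libraries with Prune2 siRNA than in any with control siRNA; the groups overlap for Col4a3, Hspg2 and Agrn.

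Col4a1 (ENSMUSG00000031502, chromosome 8, 11198423 to 11312826, minus strand), the most abundant chain of the family per length, had 1329.8, 1369.7 and 1337 CPM in the 3 Prune2 siRNA libraries, against 1685, 1634 and 1558 CPM in the 3 control libraries. Its groups were well apart, and the Prune2 siRNA libraries varied little among themselves (1346 ± 21.2 CPM, against 1626 ± 63.9 CPM in controls; SD, n = 3 each). The level fell by 17.2%, a log2 fold change of -0.27 (SE 0.04, 95% interval -0.35 to -0.20, adjusted p = 5.22e-06).

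Its partner Col4a2 (ENSMUSG00000031503, chromosome 8, 11312805 to 11449287, plus strand) encodes the chain that assembles with α1. It had 599.9, 641 and 607 CPM in Prune2 siRNA libraries, against 761, 739 and 696 CPM in control libraries. These groups did not overlap either. The fall was 15.8% (616 ± 22.1 CPM in Prune2 siRNA libraries and 732 ± 33.3 CPM in control libraries), a log2 fold change of -0.25 (SE 0.04, 95% interval -0.33 to -0.17, adjusted p = 4.51e-05). Both partners were called in all 14 alternative fits.

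Across the intergenic stretch on chromosome 1, Col4a3 (ENSMUSG00000079465, 82586921 to 82722059, plus strand) encodes the chain that carries the Goodpasture antigen in humans. It had 841, 851 and 899 CPM in Prune2 siRNA libraries and 859.7, 781 and 803 CPM in control libraries. Control replicate 1 lay above 2 of the Prune2 siRNA libraries, so the groups overlapped. The means were 864 ± 31.0 and 815 ± 40.5 CPM in the same order, with a log2 fold change of 0.08 (SE 0.04, 95% interval 0.00 to 0.16, adjusted p = 0.219).

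Col4a4 (ENSMUSG00000067158, chromosome 1, 82448423 to 82586849, minus strand), which assembles with α3 and α5, had 484, 493 and 529 CPM in Prune2 siRNA libraries and 478, 461 and 460.3 CPM in control libraries. The groups did not overlap, though Prune2 siRNA replicate 1 and control replicate 1 were close. The log2 fold change of 0.11 (SE 0.04, 95% interval 0.03 to 0.18) did not pass the adjustment, at an adjusted p of 0.0778. The call changed without Prune2 siRNA replicate 1, where the adjusted p was 0.0400, and with no filter on low counts, where it was 0.0365. With any other single library left out, the adjusted p of Col4a4 lay between 0.0671 and 0.444.

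Col4a5 (ENSMUSG00000031274, chromosome X, 141475385 to 141689234, plus strand), the X-linked chain of the α3, α4 and α5 assembly, had 139, 141 and 143 CPM in Prune2 siRNA libraries, against 122, 119 and 118 CPM in control libraries. Its means were 141 ± 2.00 CPM in Prune2 siRNA libraries and 119.7 ± 1.95 CPM in control libraries, and the SD as a share of the mean, 1.42% in Prune2 siRNA libraries and 1.63% in control libraries, was the smallest of the 10 genes in both groups. Col4a5 rose by 17.8%, a log2 fold change of 0.24 (SE 0.04, 95% interval 0.16 to 0.31, adjusted p = 6.37e-05), and was called in all 14 alternative fits.

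Its head-to-head neighbour Col4a6 (ENSMUSG00000031273), not among the 10 genes, encodes the α6 chain that pairs with α5. It had 14.5, 13.0 and 14.9 CPM in Prune2 siRNA libraries and 11.3, 10.0 and 10.5 CPM in control libraries, without overlap. Col4a6 rose, with a log2 fold change of 0.41 (SE 0.09, adjusted p = 0.00363), and was not called by limma on log2(FPKM + 1), where the adjusted p was 0.0943.

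The log2 fold changes of the partners had the same sign in each pair, although Col4a3 and Col4a4 were not called. To compare chains free of library scaling, the log2 ratio of counts was taken within each library for 6 pairs of members and compared with a two-sided exact permutation test; with 3 libraries a group, its smallest possible p is 0.1. The Col4a2 to Col4a1 ratio was 0.451, 0.468 and 0.454 in Prune2 siRNA libraries and 0.452, 0.452 and 0.447 in control libraries. These ranges overlapped, with a difference of 0.02 on the log2 scale (exact permutation p = 0.3, 0.45 adjusted over the 6 pairs). The Col4a4 to Col4a3 ratio was 0.575, 0.580 and 0.588 in Prune2 siRNA libraries and 0.556, 0.591 and 0.573 in control libraries, again with overlap and a difference of 0.02 (exact permutation p = 0.6, adjusted p = 0.6).

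The Col4a5 to Col4a1 ratio was 0.104, 0.103 and 0.107 in Prune2 siRNA libraries, against 0.0723, 0.0729 and 0.0758 in control libraries. Every Prune2 siRNA library lay above every control library, and the ratio was 1.42-fold higher (log2 difference 0.51, exact permutation p = 0.1, the smallest it can give, and 0.2 adjusted over the 6 pairs). Added after the values were seen, the Col4a3 to Col4a1 ratio was 0.633, 0.621 and 0.672 in Prune2 siRNA libraries and 0.510, 0.478 and 0.515 in control libraries. This ratio was higher in each Prune2 siRNA library, 1.28-fold in the mean (log2 difference 0.36, exact permutation p = 0.1, the smallest it can give). Every ratio to Col4a1, that of Col18a1 below included, carries the fall of Col4a1 in its denominator. These ratios are therefore not separate results, and Col4a3 itself was not called.

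**Figure D2:**
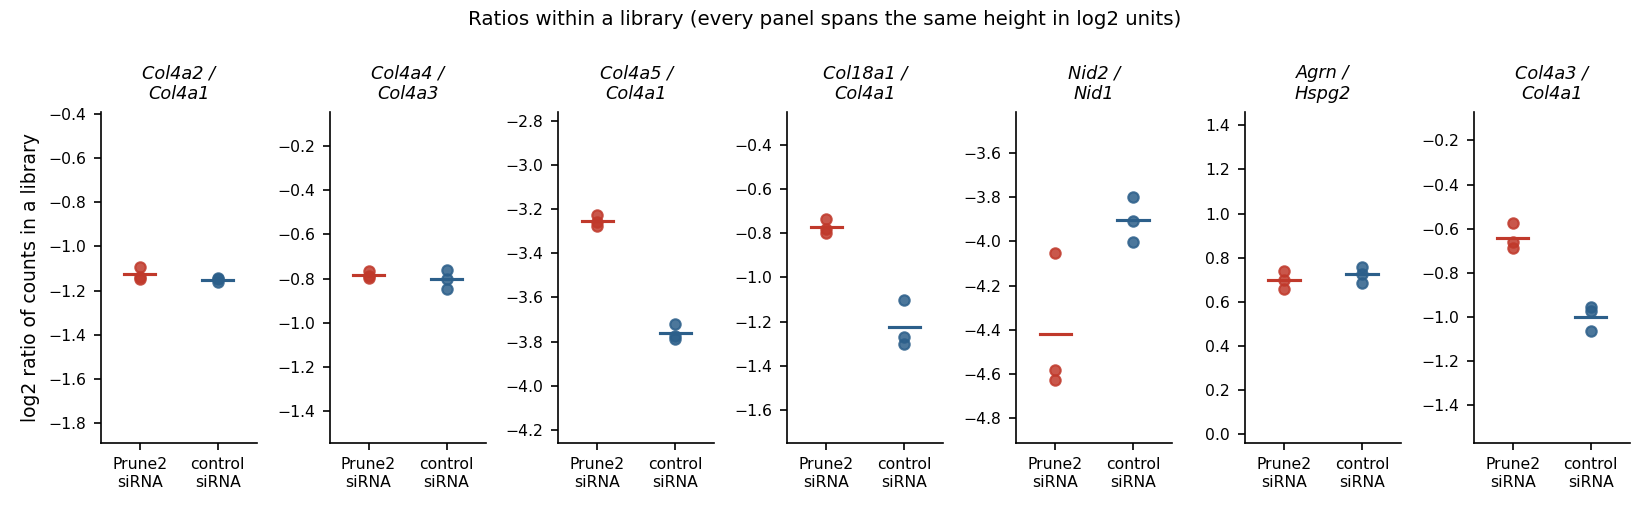
Log2 ratio of counts of 2 genes within the same library, 1 point per library, with bars at the group means and Prune2 siRNA left of control siRNA. The ratios of head-to-head partners (Col4a2 to Col4a1 and Col4a4 to Col4a3) overlap between groups, while those of Col4a5, Col18a1 and Col4a3 to Col4a1 lie apart.

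On the FPKM scale, which divides by length, the make-up of the type IV collagen transcripts can be given as shares of the summed FPKM of the 6 chains; the shares were chosen after the values were seen and are not tested. Col4a1 and Col4a2 together made up 70.3%, 70.3% and 68.9% in Prune2 siRNA libraries, against 74.9%, 75.9% and 74.5% in control libraries. Col4a3, Col4a4 and Col4a5 together made up 29.3%, 29.3% and 30.7% in Prune2 siRNA libraries, against 24.8%, 23.9% and 25.3% in control libraries. The groups did not overlap in either share. Because Col4a6 supplied so little, either share nearly fixes the other, so their separation is a single result. Col4a1 and Col4a2 still supplied the larger part in every library, and Col4a6 supplied 0.365% ± 0.0264 in Prune2 siRNA libraries and 0.245% ± 0.0125 in control libraries (SD, n = 3 each). The shares depend on the length divided by. Without Col4a6, Col4a1 and Col4a2 made up 70.6%, 70.6% and 69.2% of the summed FPKM in Prune2 siRNA libraries. In control libraries they made up 75.1%, 76.1% and 74.7%. Per annotated exonic kilobase this share was 64.1%, 64.7% and 62.7% in Prune2 siRNA libraries. It was 69.5%, 70.3% and 68.9% in control libraries, again without overlap.

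**Figure D3:**
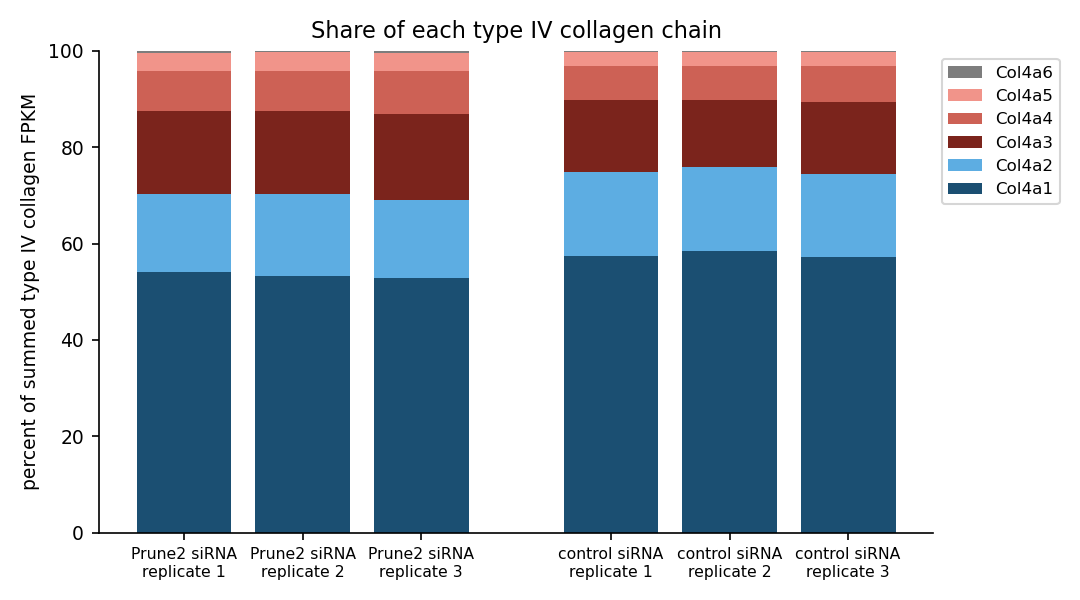
Share of each type IV collagen chain in the summed FPKM of the 6 chains, in percent, for each library, with the 3 Prune2 siRNA libraries left of the 3 control libraries. With the lengths behind the deposited FPKM, the Col4a1 and Col4a2 share averages 69.9% in Prune2 siRNA libraries and 75.1% in control libraries.

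Col18a1 (ENSMUSG00000001435, chromosome 10, 77052178 to 77166548, minus strand) encodes the collagen XVIII chain, whose C-terminal fragment endostatin inhibits blood vessel growth. It had 763, 798 and 804 CPM in Prune2 siRNA libraries, against 683, 677 and 726 CPM in control libraries. The groups did not overlap, with the highest control library still below the lowest Prune2 siRNA library. Col18a1 rose by 13.4% (788 ± 21.9 CPM in Prune2 siRNA libraries and 695 ± 27.0 CPM in control libraries), a log2 fold change of 0.18 (SE 0.04, 95% interval 0.11 to 0.26, adjusted p = 0.00116). RefSeq places 2 starts in the gene, at 77166530 and 77113705, and counts per gene do not tell their transcripts apart. The Col18a1 to Col4a1 count ratio was 0.574, 0.583 and 0.601 in Prune2 siRNA libraries and 0.405, 0.414 and 0.466 in control libraries. It was 1.37-fold higher in Prune2 siRNA libraries, without overlap (log2 difference 0.45, exact permutation p = 0.1, 0.2 adjusted over the 6 pairs).

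Both nidogens fell. Nid1 (ENSMUSG00000005397, chromosome 13, 13437551 to 13512269, plus strand), the main nidogen of most tissues, had 53.1, 58.2 and 49.7 CPM in Prune2 siRNA libraries, against 65.2, 68.1 and 64.0 CPM in control libraries. The highest Prune2 siRNA library lay below the lowest control library. Nid1 fell by 18.4%, a log2 fold change of -0.29 (SE 0.05, 95% interval -0.41 to -0.18, adjusted p = 0.00045). Limma on log2(FPKM + 1) did not call it (adjusted p = 0.0557), nor did limma on log2(FPKM + 0.1) (adjusted p = 0.0505).

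Nid2 (ENSMUSG00000021806, chromosome 14, 19751265 to 19811787, plus strand) was the scarcest of the 10, at 47, 54 and 70 counts in Prune2 siRNA libraries and 89, 98 and 92 counts in control libraries. These are 2.22, 2.36 and 2.99 CPM in Prune2 siRNA libraries, against 4.35, 4.90 and 3.997 CPM in control libraries. The groups were apart, with Prune2 siRNA replicate 3 nearest to the controls. The log2 fold change was -0.80 (SE 0.18, 95% interval -1.18 to -0.42, adjusted p = 0.00374), the largest and the least precise of the 10 genes. It was not called by limma on log2(FPKM + 1) (adjusted p = 0.0550) or on log2(FPKM + 0.1) (adjusted p = 0.0784). Of its 5174 exonic bases, 437 overlap those of Rtraf on the opposite strand. Without strand, reads from these bases cannot be told apart, and whether the authors counted by strand is not given in the sources used here; Rtraf averaged 102 CPM in Prune2 siRNA libraries and 98.8 CPM in control libraries (log2 fold change 0.04, adjusted p = 0.696). The Nid2 to Nid1 count ratio was 0.0417, 0.0404 and 0.0602 in Prune2 siRNA libraries and 0.0666, 0.0719 and 0.0624 in control libraries, with a log2 difference of -0.52 (exact permutation p = 0.1, 0.2 adjusted over the 6 pairs).

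Perlecan and agrin, the large heparan sulfate proteoglycans, were abundant and not called. Hspg2 (ENSMUSG00000028763, chromosome 4, 137468769 to 137570630, plus strand) had 1086, 1185 and 1200.4 CPM in Prune2 siRNA libraries and 1131, 1049 and 1061 CPM in control libraries. Prune2 siRNA replicate 1 lay inside the control range. Its log2 fold change was 0.10 (SE 0.04, 95% interval 0.02 to 0.18, adjusted p = 0.145). Without Prune2 siRNA replicate 1 the adjusted p was 0.0221, and with no filter on low counts 0.0447. With any other single library left out, the adjusted p of Hspg2 lay between 0.0804 and 0.474. The call therefore depends on the libraries used and on the filter.

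Agrn (ENSMUSG00000041936, chromosome 4, 156165290 to 156197488, minus strand), which also clusters acetylcholine receptors at the neuromuscular junction, had 1814, 1873 and 1950.2 CPM in Prune2 siRNA libraries and 1819.5, 1737 and 1796 CPM in control libraries. In CPM the groups overlapped by a single library. In deposited FPKM they did not overlap, at 257.44 to 278.02 in Prune2 siRNA libraries and 245.02 to 256.06 in control libraries. The log2 fold change was 0.07 (SE 0.04, 95% interval 0.00 to 0.15, adjusted p = 0.255). The Agrn to Hspg2 count ratio was 1.67, 1.58 and 1.62 in Prune2 siRNA libraries and 1.61, 1.66 and 1.69 in control libraries, with overlap and a log2 difference of -0.02 (exact permutation p = 0.5, adjusted p = 0.6). For Hspg2, the fold change's interval reaches 1.13-fold, and for Agrn 1.11-fold, so larger rises lie outside these intervals.

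Among the replicates, Prune2 siRNA replicate 3 held the highest value of its group for 7 of the 10 genes, and replicate 2 for Col4a1, Col4a2 and Nid1. Control replicate 1 held the highest value of its group for 7 genes as well. Leaving out any single library kept the sign of the log2 fold change of each of the 10 genes. Over these fits it ran between -0.30 and -0.25 for Col4a1, between 0.22 and 0.25 for Col4a5 and between -0.94 and -0.72 for Nid2.

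In order of deposited FPKM, Col4a1 led in both groups, at 312 ± 1.26 in Prune2 siRNA libraries and 374 ± 14.1 in control libraries. Agrn followed at 267 ± 10.5 in Prune2 siRNA libraries and 252 ± 5.89 in control libraries, and Col18a1 at 162 ± 2.50 and 141 ± 4.85 in the same order of groups. In Prune2 siRNA libraries Col4a3 (101 FPKM) and Col4a2 (95.8 FPKM) came next and overlapped, whereas in control libraries Col4a2 (113 FPKM) stood above Col4a3 (94.9 FPKM) without overlap. The order then ran, in both groups, through Hspg2 (81.8 FPKM in Prune2 siRNA libraries, 76.0 in control libraries), Col4a4 (49.8 and 46.0), Col4a5 (22.6 and 19.0), Nid1 (8.84 and 10.8) and Nid2 (0.527 and 0.903). Apart from the overlap of Col4a3 and Col4a2, neighbours in this order did not overlap in either group. The order depends on the length the authors divided by: the count and FPKM columns imply a mean length of 4332 bases for Col4a1 in Prune2 siRNA libraries, against 7464 exonic bases in the annotation. Per annotated exonic kilobase, an order added after the values were seen, Agrn (202 CPM per kilobase) stood above Col4a1 (180.3) in Prune2 siRNA libraries, and Col4a1 (218) above Agrn (192) in control libraries. On that scale Col4a2 stood above Col4a3 without overlap in both groups, at 93.1 and 86.6 CPM per kilobase in Prune2 siRNA libraries and at 111 and 81.7 in control libraries, so the change of their order between groups is seen on the FPKM scale alone. Col18a1 (112 CPM per kilobase) stood above Col4a2 in Prune2 siRNA libraries and below it in control libraries (99.0). By FPKM, Col18a1 stood above Col4a2 in both groups.

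**Figure D4:**
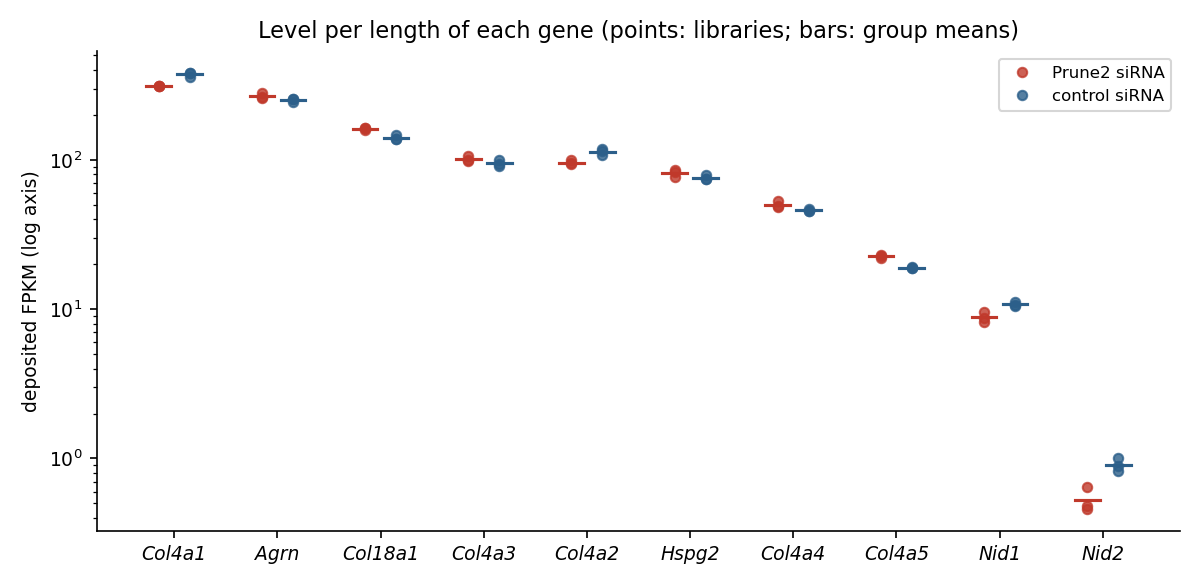
Deposited FPKM of the 10 genes on a log axis, 1 point per library, with bars at the group means and Prune2 siRNA left of control siRNA, ordered by the mean in Prune2 siRNA libraries. Levels run from Col4a1 at 312 FPKM in Prune2 siRNA libraries and 374 FPKM in control libraries down to Nid2 at 0.527 and 0.903 FPKM.

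Genes that build, bind or cut the same matrix were followed in 6 further lists. Of 18 tested other basement membrane proteins (20 listed), 4 rose, 3 fell and 11 were not called, so 38.9% were called beside 10.3% of all tested genes, with a median log2 fold change of -0.05. Ntn4, a netrin that binds laminin, averaged 48.6 ± 2.66 CPM in Prune2 siRNA libraries and 39.9 ± 2.53 CPM in control libraries (log2 fold change 0.29, adjusted p = 0.0013). Col4a6, Tinag and Fras1 also rose; the calls of Tinag (0.24, adjusted p = 0.0224) and Fras1 (0.34, adjusted p = 0.0227) were lost on leaving out most single libraries. Without Prune2 siRNA replicates 2 or 3 or any control replicate the adjusted p of Tinag lay between 0.0520 and 0.0857, and without any Prune2 siRNA replicate or control replicate 3 that of Fras1 lay between 0.0507 and 0.174. Sparc, a collagen-binding glycoprotein that chaperones type IV collagen, fell to 534 ± 18.3 CPM in Prune2 siRNA libraries, against 727 ± 19.97 CPM in control libraries (log2 fold change -0.44, adjusted p = 1.88e-09). Pxdn, the peroxidase that forms sulfilimine crosslinks in type IV collagen, averaged 722 ± 10.1 and 843 ± 21.8 CPM in the same order of groups (log2 fold change -0.22, adjusted p = 4.31e-05). Col15a1, the relative of Col18a1, averaged 6.89 ± 0.374 CPM in Prune2 siRNA libraries and 9.58 ± 0.726 CPM in control libraries (log2 fold change -0.48, adjusted p = 0.0051), and was not called by limma on log2(FPKM + 1) (adjusted p = 0.0767).

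Of the 11 laminin chains, which form the other network of the basement membrane, 1 rose, 1 fell and 9 were not called, so 18.2% were called beside 10.3% of all tested genes, with a median log2 fold change of 0.00. Lama5, the α5 chain of mature kidney basement membranes, averaged 630 ± 34.2 CPM in Prune2 siRNA libraries and 557 ± 24.6 CPM in control libraries (log2 fold change 0.18, adjusted p = 0.00399); the call was lost without control replicate 2 (adjusted p = 0.0628) and in limma on log2(FPKM + 1) (adjusted p = 0.0681). Lama1 averaged 3.997 ± 0.0913 CPM in Prune2 siRNA libraries and 5.58 ± 0.559 CPM in control libraries (log2 fold change -0.48, adjusted p = 0.0352). That call was lost on leaving out any library other than control replicate 1 (adjusted p between 0.0777 and 0.180) and in DESeq2 (adjusted p = 0.133). Of 11 tested receptors for basement membranes, 1 rose, 1 fell and 9 were not called, again 18.2% beside 10.3%, with a median of 0.04. Bcam, the receptor of laminin α5, averaged 277 ± 19.3 CPM in Prune2 siRNA libraries and 219 ± 9.15 CPM in control libraries (log2 fold change 0.34, adjusted p = 3.86e-06). Itgb1, the integrin β1 subunit, averaged 3743 CPM in Prune2 siRNA libraries and 4199 CPM in control libraries (log2 fold change -0.17, adjusted p = 0.00195).

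Of 17 collagen biosynthesis genes, 1 was called, or 5.88% beside 10.3% of all tested genes, with a median log2 fold change of -0.01. Plod2, a lysyl hydroxylase, fell to 226 ± 5.39 CPM in Prune2 siRNA libraries, against 289 ± 3.57 CPM in control libraries (log2 fold change -0.36, adjusted p = 5.46e-08). Of 18 tested genes of heparan sulfate synthesis and editing, 2 rose, 2 fell and 14 were not called, so 22.2% were called beside the same 10.3%, with a median of -0.04. Ndst1, an N-deacetylase and N-sulfotransferase, averaged 429.6 ± 14.9 CPM in Prune2 siRNA libraries and 379.8 ± 3.38 CPM in control libraries (log2 fold change 0.18, adjusted p = 0.000961). Xylt1, which starts the glycosaminoglycan linker, averaged 11.3 ± 0.960 CPM in Prune2 siRNA libraries and 15.6 ± 1.57 CPM in control libraries (log2 fold change -0.47, adjusted p = 0.00125). The smaller changes of Hs6st1 (0.14, adjusted p = 0.00964) and Glce (-0.15, adjusted p = 0.0217) each lost their call without Prune2 siRNA replicate 3 (adjusted p = 0.0815 for Hs6st1 and 0.213 for Glce). They lost it too without control replicate 2 (0.110 and 0.0508), and Glce also without control replicate 1 (0.0816). On log2(FPKM + 1), limma called neither of them, nor Xylt1 (adjusted p = 0.0586 for Hs6st1, 0.172 for Glce and 0.116 for Xylt1).

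Of 14 tested proteases and inhibitors that act on the basement membrane, 3 rose, 7 fell and 4 were not called, so 71.4% were called beside 10.3% of all tested genes, with a median log2 fold change of -0.16. Mmp9, the gelatinase that cleaves type IV collagen, fell to 127 ± 14.7 CPM in Prune2 siRNA libraries, against 198 ± 5.49 CPM in control libraries (log2 fold change -0.64, adjusted p = 3.57e-09). Plat, the tissue-type plasminogen activator, averaged 80.4 ± 0.659 CPM in Prune2 siRNA libraries and 114 ± 8.61 CPM in control libraries (log2 fold change -0.50, adjusted p = 2.54e-08). Timp3, a matrix-bound metalloproteinase inhibitor, rose to 421 ± 10.1 CPM in Prune2 siRNA libraries, against 361 ± 4.47 CPM in control libraries (log2 fold change 0.22, adjusted p = 4.86e-05). Plau, the urokinase-type plasminogen activator, and Htra1, a secreted serine protease, also rose, with log2 fold changes of 0.21 (adjusted p = 0.0018) and 0.23 (adjusted p = 0.00268). Limma on log2(FPKM + 1) called neither (adjusted p = 0.0712 for Plau and 0.0587 for Htra1), and DESeq2 did not call Plau (adjusted p = 0.0556).

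**Figure D5:**
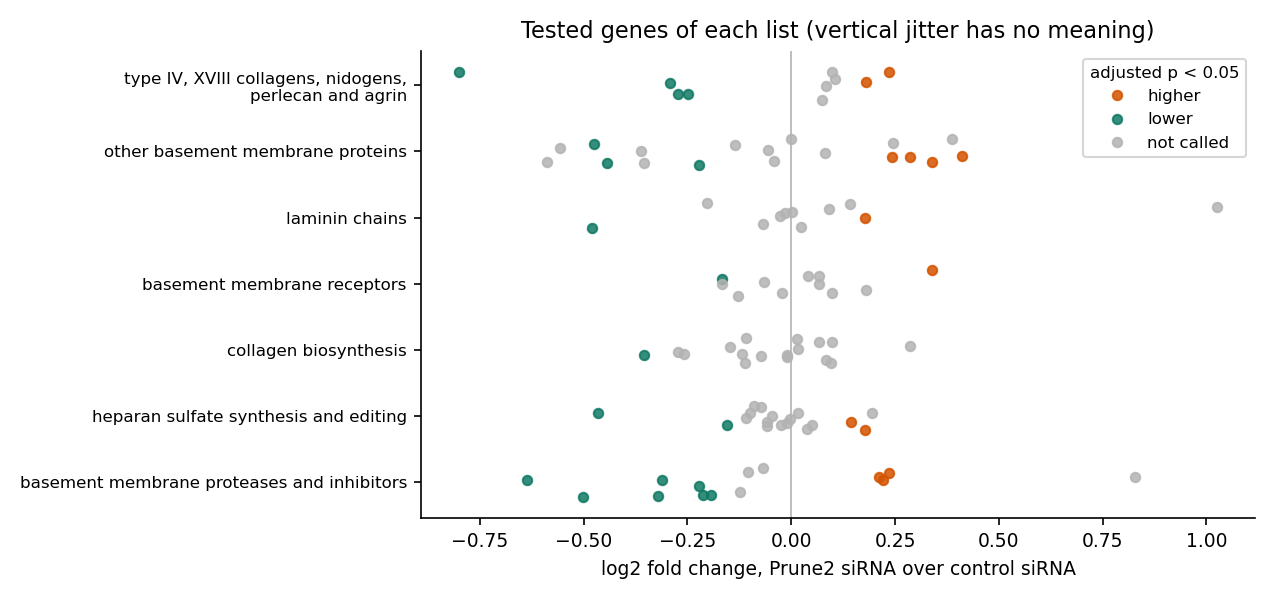
Log2 fold change, Prune2 siRNA over control siRNA, of each tested gene of the 10 basement membrane genes and of the 6 further lists, 1 point per gene, with called genes in orange (higher) or green (lower) and the others in grey. The proteases and inhibitors hold the largest share of called genes, 10 of 14, most of them below 0.

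Markers of other cell types moved between the groups as well; beside the counts below, 5.83% of all tested genes fell and 4.46% rose. Of 9 leukocyte markers, 9 fell, and their summed level was 27.9 to 30.7 CPM in Prune2 siRNA libraries and 130.4 to 155 CPM in control libraries. Of 8 endothelial markers, 5 fell, with sums of 80.3 to 83.0 CPM in Prune2 siRNA libraries and 106 to 114 CPM in control libraries. Of the 7 tested fibroblast markers (9 listed), 3 fell, Vim, Col1a1 and Col1a2, with sums over the list of 679 to 720.1 CPM in Prune2 siRNA libraries and 898 to 939 CPM in control libraries. Mesangial and pericyte markers fell for 3 of 5 tested (6 listed), with sums of 310.4 to 324 CPM in Prune2 siRNA libraries and 356 to 378 CPM in control libraries.

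Podocytes, which make the α3, α4 and α5 chains in the glomerulus, were marked by 6 listed genes. Of the 5 tested, 1, Wt1, fell, and the sums overlapped, at 128 to 151 CPM in Prune2 siRNA libraries and 130.5 to 133 CPM in control libraries. The call of Wt1 was lost without Prune2 siRNA replicate 2, Prune2 siRNA replicate 3 or control replicate 2 (adjusted p = 0.111, 0.110 and 0.184). The slit diaphragm gene Nphs1 was near 0, at most 0.425 CPM in Prune2 siRNA libraries and 0.304 CPM in control libraries. Of 7 tested tubular epithelial markers (9 listed), Slc12a3 and Cdh16 rose and Lrp2 and Krt8 fell; limma on log2(FPKM + 1) did not call Lrp2 (adjusted p = 0.248) or Krt8 (adjusted p = 0.230). The call of Krt8 was also lost without Prune2 siRNA replicates 2 or 3 or control replicates 1 or 2 (adjusted p between 0.0777 and 0.204). Their sums were 5001 to 5457 CPM in Prune2 siRNA libraries and 5467 to 5601 CPM in control libraries, and the collecting duct gene Aqp2 was at 0 in every library. The part of these shifts in the changes of Col4a1, Col4a2, Col4a5, Col18a1, Nid1 and Nid2 was not tested.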

How the data were processed

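RNA-seq libraries of 3 Prune2 siRNA and 3 control siRNA samples were grouped by their titles. The authors deposited a table that gives, per the file headers, counts and FPKM for every library beside a log2 fold change and p-value columns; the deposited log2 values equal the log2 ratio of mean FPKM to within 2e-14. The submitters' processing notes name the builds GRCm38 and mm10. Not given in the sources used here are the aligner, the counter, the handling of strand and of multiply mapped reads, and the authors' test. Of 22274 gene identifiers, 22219 were found in GENCODE M21, which gave names and positions.

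The counts were fitted with edgeR 4.0.16 under R 4.3.3 (TMM, filterByExpr, glmQLFit and glmQLFTest, Benjamini-Hochberg over 13248 genes, called at an adjusted p under 0.05). Levels are TMM-scaled CPM. Intervals of 95% are unadjusted and use edgeR's degrees of freedom. Alternatives used DESeq2 1.42.0 and limma 3.58.1, with FPKM on the log2(FPKM + 1) or log2(FPKM + 0.1) scale, which understates the change of scarce genes. Ratios used exact two-sided permutation tests. Replicates differed by 2.57 to 3.92 chi-square per degree of freedom, more than sampling noise. The fit was tested on simulated data. Over all tested genes, deviations of same-numbered libraries correlated at under 0.1.

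The 10 genes, the further lists and the marker lists were chosen with earlier results of these data known. In the further lists, the text names at most 2 called genes in each direction, those of smallest adjusted p, and further genes only where a count was small. Genes sharing reads with close copies could not be separated.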

Additional observations from a re-analysis of the deposited data

How the results depend on the processing

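The 14 alternatives were TMM against 2 other scalings, no filter, DESeq2, limma on counts and on FPKM, a replicate block and each library left out. Of 140 fits of the 10 genes, 0 reversed a direction and 132 kept the result of the main fit, whether called or not called. A call was lost in 4 (Nid1 and Nid2 on both FPKM scales) and gained in 4 (Col4a4 and Hspg2 with no filter and without Prune2 siRNA replicate 1). Of the basement membrane genes, 4 rose with no filter and between 2 and 4 when a library was left out, and 2 fell on either FPKM scale; the cause was not tested. Over all genes, limma called 752 (326 higher, 426 lower) on log2(FPKM + 1) and 756 (326 higher, 430 lower) on log2(FPKM + 0.1), against 1364 by edgeR on counts (591 higher, 773 lower). DESeq2 called 1071, no filter gave 1605, and leaving out a library gave 997 to 1249. Leaving out a library gave 0 to 2 called laminin chains, 2 to 4 receptors, 1 to 3 collagen biosynthesis genes and 2 to 4 heparan sulfate genes. The 0 came without control replicate 2, where 3 laminin chains had an unadjusted p under 0.05 in edgeR. Limma on either FPKM scale also called 0, with 1 at an unadjusted p under 0.05.

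Over all tested genes, deviations of same-numbered libraries correlated between -0.0366 and 0.0310, each under 0.1. Whether the replicate numbers mark pairs is not given in the labels, and a correlation over all genes cannot settle it. With the number as a block, 1490 genes were called (664 higher, 826 lower), with the same count of 6 basement membrane genes and 3 collagen biosynthesis genes, against 1.

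Depth limits Nid2, at 47 to 98 counts per library. Across the alternatives the median log2 fold change of all genes lay between -0.00498 and 0.0114.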
